A study of Homo sapiens with 32 samples.

Results

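The transcripts described here come from 10 genes of serine/arginine-rich (SR) splicing factors, SRSF1, SRSF2, SRSF3, SRSF4, SRSF5, SRSF6, SRSF7, SRSF11, TRA2A and TRA2B, out of 38864 protein-coding and lncRNA genes in which tags were counted. They were chosen by name, and each tag on the gene's own strand within the gene body (hg19) was assigned to a constitutive exon, a 3′ UTR, a poison exon, a retained intron or the remaining intron, a class that also takes bases of the gene body outside the canonical transcript. The study used iCLIP, in which protein and RNA are joined by UV light in living cells, the protein is immunoprecipitated, and the place where reverse transcription stopped marks the contacted base, so that 1 tag is 1 deduplicated cDNA at 1 base. The cells were FlpIn-293, a human embryonic kidney line that a source label calls HEK293T, in which a stably integrated FLAG-tagged Alyref, Chtop or Nxf1 was switched on by 48 h of tetracycline. The dose was 5 ng/mL in the Nxf1 line and 10 ng/mL in the other lines with a factor. Control cells carried the FLAG construct with no factor, and an anti-FLAG antibody was used in all 4 groups. No tetracycline dose or time is given for the Control cells, so whether they were induced is not known. Each group had 3 libraries, and the labels do not say how the cultures were separated, so p-values measure the spread between these libraries. Alyref and Chtop are adaptor subunits of TREX, the complex that loads mRNA for export, and Nxf1 is the receptor that carries mRNA through the nuclear pore.

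SR proteins bind exonic and other RNA sites through RNA recognition motifs, use their RS domains to recruit the splicing machinery, and some of them also hand mRNA over to Nxf1. Most SR genes hold a poison exon, an alternative exon with an in-frame stop codon, often within an ultraconserved element. When an SR protein is abundant it promotes inclusion of the poison exon in its own transcript or splicing in its 3′ UTR, and nonsense-mediated decay (NMD) removes that transcript. Other isoforms of SR genes keep an intron and stay in the nucleus.

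By the annotation, an exon lying wholly inside an intron of the canonical transcript and used by a transcript destined for NMD was found in 8 members, 15 such exons in all. SRSF1 and SRSF5 had none. Stop codons from 1 such exon in each of 7 members, 2 of them in SRSF7, are shown because an early stop codon is what sends a transcript to NMD. Capitals mark the stop codon, letters are DNA letters of the RNA strand, read 5′ to 3′ from GRCh37 (hg19):
SRSF3 intron 3, chr6:36567615-36567644, plus strand: ttctcaccaccctcTGAatctgcattagcc
SRSF4 intron 1, chr1:29492507-29492536, minus strand: cttacaaggaaaaTGAgtgaatgtgggaat
SRSF6 intron 2, chr20:42087928-42087957, plus strand: cagccttttgccatTAGacgcagggtgatg
SRSF7 intron 3, downstream stop, chr2:38976280-38976309, minus strand: aaatttgagacggTGAtcgccgtaacagta
SRSF7 intron 3, upstream stop, chr2:38976447-38976476, minus strand: gagtcagtcgcctTGAttcagaatgtcacg
SRSF11 intron 2, chr1:70697575-70697604, plus strand: cagcttttgaaagtTGAgagcacacccctg
TRA2A intron 1, chr7:23561894-23561923, minus strand: aagattggtcagaTAGaagcacttgaatat
TRA2B intron 1, chr3:185649546-185649575, minus strand: gctcaggaataagTGAagctgaaatttgaa
The SRSF7 exon holds the stop codons of 2 transcripts at different places. Of the 15 exons, 11 hold a stop codon of an NMD transcript, and the exon of SRSF2 and 3 of the 4 exons of SRSF4 hold none.

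Libraries held 47052 to 631704 tags in the Alyref and Chtop groups, 8134 to 179346 in Nxf1 and 7017 to 46628 in Control. Replicate 1 was the shallowest library of the Alyref, Chtop, Nxf1 and Control groups. The 10 members held 0.197 to 0.223% of the tags of the Alyref libraries, 0.202 to 0.290% in Chtop, 0.0736 to 0.283% in Nxf1 and 0.111 to 0.171% in Control. Pooled over 3 libraries this was 2827 tags in Alyref, 2642 in Chtop, 368 in Nxf1 and 131 in Control. Levels are given as CPM, the tags of a gene divided by all tags of the library and scaled to 1000000, and a gene with 0 tags could have had up to 4.75 CPM in the deepest library and up to 428 CPM in Control replicate 1. These limits, and the 95% Wilson intervals given with shares below, cover counting error only. A tag count grows with the amount of the RNA and with how often the protein touches it, and the 2 cannot be told apart here.

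**Figure D1:**
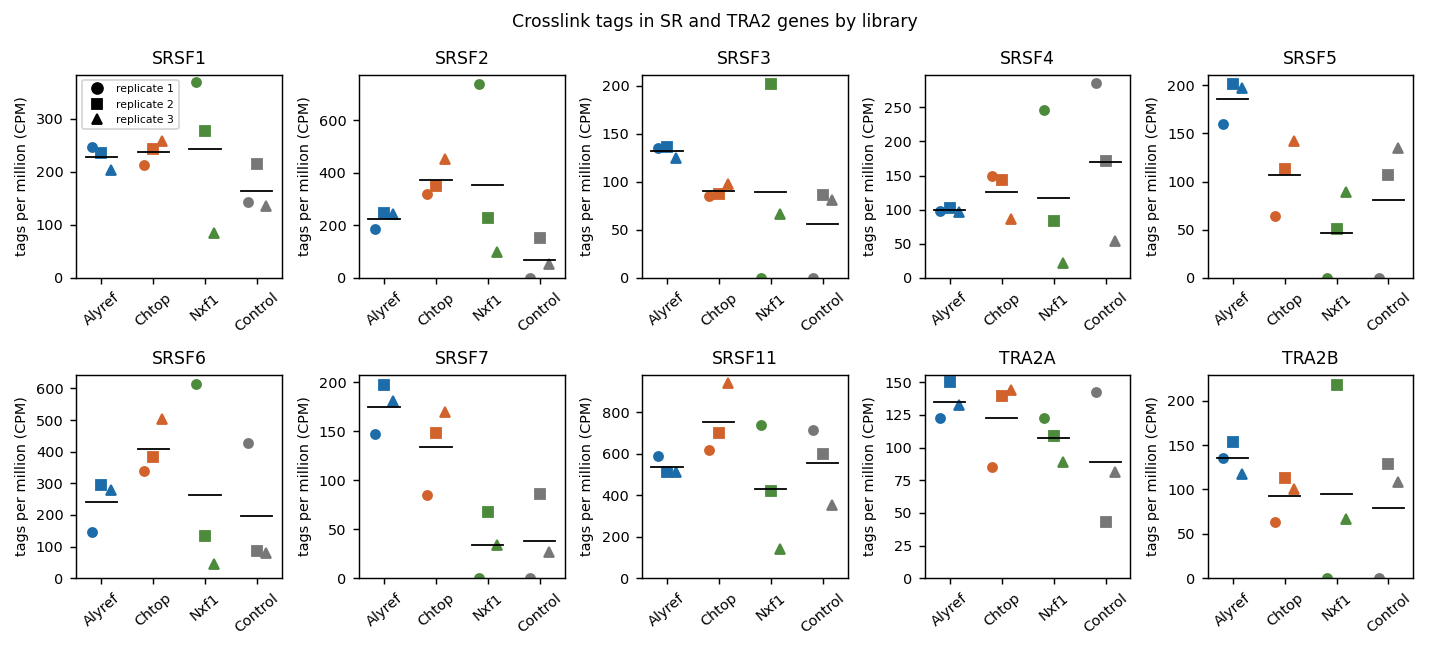
Level in CPM (y axis) of each of the 10 SR genes in each library of the Alyref, Chtop, Nxf1 and Control groups, 1 point per library and a bar at the mean of 3 libraries. SRSF11 has the highest level of the 10 genes in the Alyref (511 to 590 CPM) and Chtop (616 to 940 CPM) libraries, and in SRSF2 the Nxf1 points spread from 100 to 738 CPM against 184 to 247 CPM for Alyref.

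Per kilobase of exon, SRSF2 was the most densely tagged member with each factor. SRSF2, which binds exonic sites in both splicing and transcription, had 109 CPM per kb of exon with Alyref, 182 with Chtop and 67.4 with Nxf1, pooled over 3 libraries. Next came SRSF5, at 94.5 CPM per kb, and SRSF11, at 89.6, with Alyref, and SRSF11, at 168, and SRSF6, at 91.2, with Chtop. The lowest densities were those of SRSF4 with Alyref, at 15.5, and of SRSF3 with Chtop, at 15.8 CPM per kb. In the Control the order was led by SRSF1, at 31.0, and SRSF2, at 29.2 CPM per kb, from 15 and 5 exonic tags, so neighbours in that order could not be separated.

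The question of the comparisons with Control was which SR transcripts gave more tags with a factor than with the FLAG tag alone. SRSF2 and SRSF6 were higher with Chtop than in Control. No member passed with Alyref or with Nxf1. SRSF2 stood at 319, 349 and 454 CPM in the 3 Chtop libraries, against 0, 150 and 54.1 CPM in Control. All 3 Chtop libraries lay above all 3 Control libraries, but the 0 tags of Control replicate 1 allow up to 428 CPM. The log2 fold change of SRSF2 was 2.00 (SE 0.53, edgeR quasi-likelihood test with Benjamini-Hochberg adjustment over 3744 genes, adjusted p = 0.0126). SRSF6, a regulator of alternative exons, was at 340, 382 and 503 CPM with Chtop and at 428, 85.8 and 81.1 CPM in Control. Its groups overlapped in Control replicate 1, where 428 CPM was 3 tags. The log2 fold change of SRSF6 was 1.91 (SE 0.53, edgeR adjusted p = 0.0148). These were 2 of 10 members, against 9.8% of all genes tested that were higher in this comparison and 5.13% that were lower (367 and 192 genes, or 121 and 139 by DESeq2), and no member was lower. The call of SRSF2 was lost without Chtop replicate 3 (edgeR adjusted p = 0.0532) or Control replicate 3 (0.0724). That of SRSF6 was lost without Chtop replicate 3 (edgeR adjusted p = 0.0605), Control replicate 2 (0.109) or Control replicate 3 (0.0716).

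With Alyref, 0.0267% of all genes tested passed as higher than Control and 0% as lower by edgeR (8 and 5 genes by DESeq2, and 395 and 187 at an unadjusted p under 0.05), so nearly no gene was called. Of the members, 9 of 10 had a log2 fold change above 0 and their median was 0.63, while the median over all genes was 0.16. The member with the smallest p was SRSF7, which also takes part in handing mRNA to the export receptor, with a log2 fold change of 1.58 (SE 0.63, edgeR adjusted p = 0.208). It was the only one of the 10 with an unadjusted p under 0.05. SRSF7 was at 148, 198 and 181 CPM in the Alyref libraries and at 0, 85.8 and 27.0 CPM in Control. The values did not overlap, but the 0 tags of Control replicate 1 allow up to 428 CPM. With Nxf1, 0% of all genes passed in either direction by edgeR (0 higher and 1 lower by DESeq2, and 175 and 91 at an unadjusted p under 0.05). Of the members, 5 of 10 members had a value above 0, their median log2 fold change was 0.06 against 0.10 over all genes, and 0 members had an unadjusted p under 0.05.

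Between Alyref and Chtop, SRSF2 differed, with a lower level with Alyref. Alyref libraries held 184, 247 and 242 CPM of SRSF2, all below the 3 Chtop libraries (log2 fold change -0.88, SE 0.31, edgeR adjusted p = 0.0485). SRSF6 had the same size of difference, with 148, 294 and 280 CPM in Alyref, and did not pass (log2 fold change -0.87, SE 0.32, edgeR adjusted p = 0.0533). In this comparison 10.5% of all genes were lower and 5.26% were higher with Alyref (392 and 197 genes, or 193 and 204 when scaled by library totals), and of the members 1 was lower and none was higher. The SRSF2 call lay at the threshold, and leaving out a library ended it in 8 of 12 refits, without Alyref replicate 1, 2 or 3, Chtop replicate 1 or 3, Nxf1 replicate 2, or Control replicate 2 or 3, with edgeR adjusted p-values of 0.0512 to 0.301.

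Against Nxf1, SRSF7 was higher with both Alyref and Chtop, and SRSF6 and SRSF11 were higher with Chtop. SRSF7 was at 0, 67.1 and 33.5 CPM in the Nxf1 libraries, below every library of Alyref and of Chtop, whose values were 85.0, 148 and 170 CPM. The 0 tags of Nxf1 replicate 1 allow up to 369 CPM, so this library cannot be placed below the others. The log2 fold change of SRSF7 was 1.70 for Alyref over Nxf1 (SE 0.44, edgeR adjusted p = 0.0190) and 1.55 for Chtop over Nxf1 (SE 0.45, edgeR adjusted p = 0.0113). SRSF6 was at 615, 134 and 44.6 CPM with Nxf1, and the first of these, from 5 tags, lay above all Chtop libraries. The log2 fold change of SRSF6 for Chtop over Nxf1 was 1.91 (SE 0.42, edgeR adjusted p = 0.00147). SRSF11, an SR protein that binds the splicing factor U2AF, was at 616, 700 and 940 CPM with Chtop and at 738, 419 and 139 CPM with Nxf1, overlapping in Nxf1 replicate 1, where it had 6 tags. Its log2 fold change for Chtop over Nxf1 was 1.32 (SE 0.41, edgeR adjusted p = 0.0162). The background was 16% of genes higher and 9.21% lower for Chtop over Nxf1, with 3 of 10 members higher, and 3.23% higher and 1.79% lower for Alyref over Nxf1 (121 and 67 genes, or 233 and 41 by library totals and 23 and 6 by DESeq2), with 1 of 10 members higher. No member was lower in either. The median log2 fold change of the members was 0.79 for Chtop over Nxf1 and 0.40 for Alyref over Nxf1, and over all genes it was 0.08 and 0.03. The Alyref and Chtop comparisons share the Nxf1 libraries and are not independent.

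Of the 3 Nxf1 libraries, replicate 3 decided all 4 of these calls. Without it the adjusted p by edgeR for Chtop over Nxf1 was 0.116 for SRSF6, 0.185 for SRSF7 and 0.299 for SRSF11, and for Alyref over Nxf1 it was 0.272 for SRSF7. SRSF7 in the Alyref comparison was also lost without Alyref replicate 2 (edgeR adjusted p = 0.137), Alyref replicate 3 (0.0850) or Nxf1 replicate 2 (0.0697). In the Chtop comparison SRSF7 was lost without Chtop replicate 3 (edgeR adjusted p = 0.0638), and SRSF11 without Chtop replicate 3 (0.119) or Alyref replicate 2 (0.0558).

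**Figure D2:**
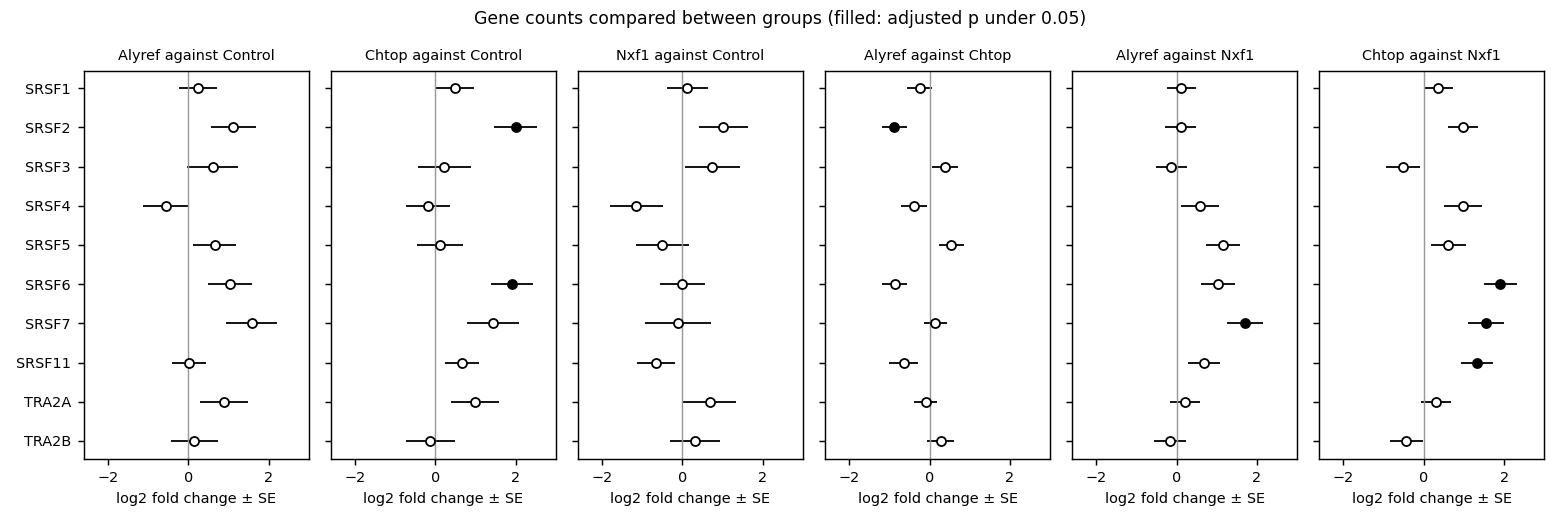
Log2 fold change of the tags of each SR gene between 2 groups (x axis, with its SE) from the edgeR fit over 12 libraries, 1 panel per comparison, filled where the adjusted p was under 0.05. The filled points are SRSF2 and SRSF6 for Chtop over Control (2.00 and 1.91), SRSF2 for Alyref over Chtop (-0.88), SRSF7 for Alyref over Nxf1 (1.70), and SRSF6, SRSF7 and SRSF11 for Chtop over Nxf1 (1.91, 1.55 and 1.32).

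The remaining 6 members passed no gene test. SRSF1, the founding SR protein, was at 204 to 246 CPM in Alyref, 213 to 258 in Chtop, 83.6 to 369 in Nxf1 and 135 to 214 in Control. SRSF3, the smallest SR protein and an export adaptor, was at 124 to 136 CPM in Alyref and 85.0 to 97.8 in Chtop, ranges that did not overlap, with an adjusted p above the threshold in each comparison. SRSF5, an SR protein first found through its induction in regenerating liver, was at 160 to 201 CPM in Alyref and 63.8 to 142 in Chtop, also without overlap. SRSF4, the longest of the classical SR proteins, was at 96.1 to 103 CPM in Alyref and 86.1 to 149 in Chtop. TRA2A and TRA2B, the SR-like proteins that bind GAA-rich exonic enhancers, were at 123 to 150 and 118 to 154 CPM in Alyref and at 85.0 to 144 and 63.8 to 113 CPM in Chtop. In Nxf1 and Control replicate 1 each of these 6 genes had 3 tags or fewer. The bodies of SRSF1 and SRSF6 are overlapped on the same strand by another, unnamed protein-coding gene, so their tags cannot be told apart from tags of that gene.

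The place of the tags along the transcripts differed between Alyref and Chtop. With Alyref, 34.9 ± 0.541% (SD, n = 3) of the members' tags were in 3′ UTRs and 37.1 ± 1.86% in constitutive exons. With Chtop the 3′ UTR share was 54.5 ± 5.22% and the constitutive exon share 28.0 ± 1.28%. Nxf1 had 46.2 ± 20.8% in 3′ UTRs and 18.5 ± 0.995% in constitutive exons, and Control 24.1 ± 8.36% and 17.1 ± 7.63%. The lowest Chtop library, at 49.5%, lay above the highest Alyref library, at 35.5%, in 3′ UTR share, and an exact permutation test of 3 against 3 libraries cannot go below p = 0.10, so these shares are given without a test. Over all protein-coding genes the 3′ UTR shares were smaller, 14.5 ± 1.18% for Alyref and 28.5 ± 5.00% for Chtop, and the remaining intron held 47.1% and 35.4% of tags, against 19.5 ± 0.179% and 12.1 ± 4.20% in the SR genes. There 3′ UTRs also took a smaller part of gene length. Per kb, 3′ UTR density over that of the remaining intron was 14.6-fold with Alyref and 41.9-fold with Chtop in the SR genes. It was 8.88-fold with Nxf1 and 3.44-fold in Control. Over all protein-coding genes it was 10.8-fold with Alyref, 34.1-fold with Chtop, 8.25-fold with Nxf1 and 4.02-fold in Control. In the SR genes Chtop had 69.3 CPM per kb in 3′ UTRs and 67.1 in constitutive exons, and Alyref 35.5 and 76.8.

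**Figure D3:**
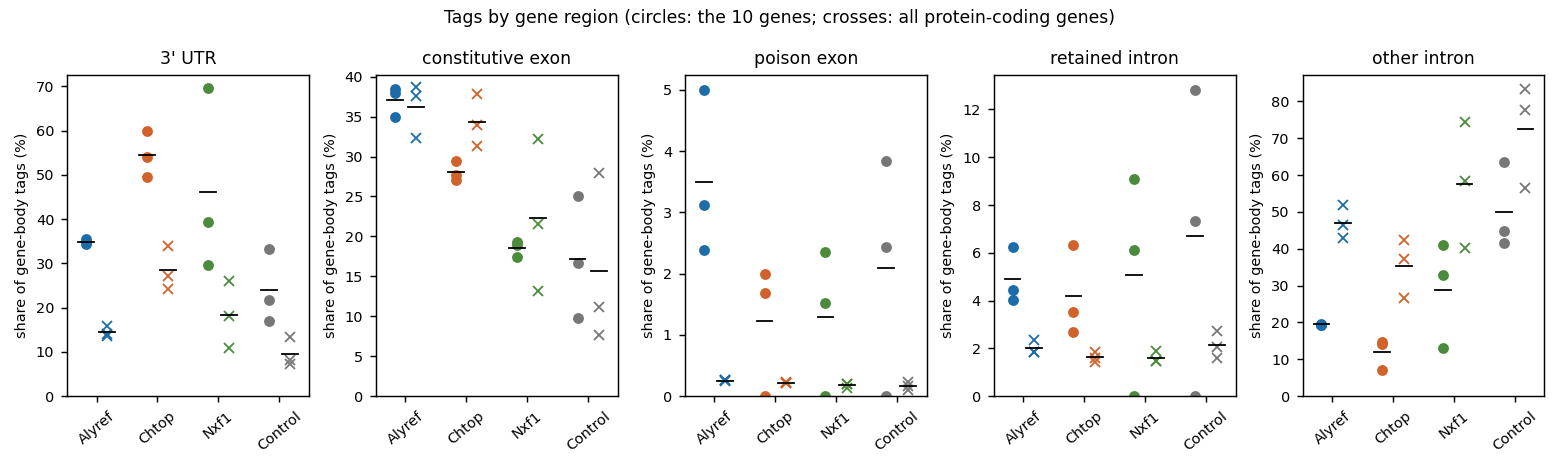
Percent of each library's SR gene tags (y axis) in 3′ UTRs, constitutive exons, poison exons, retained introns and the remaining (other) intron, 1 circle per library and a bar at the mean of 3, beside crosses and a bar for the same libraries over all protein-coding genes. The Chtop circles for 3′ UTRs lie around 54.5% and those of Alyref around 34.9%, and the remaining intron is largest in Control, where the libraries lie between 41.7 and 63.4%.

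The larger 3′ UTR share with Chtop was seen in 8 of 10 members. TRA2B had 20.1% (14.9 to 26.6%) of 179 tags in its 3′ UTR with Alyref and 70.1% (60.8 to 77.9%) of 107 with Chtop, pooled over libraries with 95% Wilson intervals. SRSF7 had 26.4% (21.3 to 32.3%) and 63.1% (55.3 to 70.2%), SRSF6 44.4% (39.4 to 49.5%) and 70.8% (66.4 to 74.8%), and SRSF5 21.6% (17.0 to 27.0%) and 52.0% (43.3 to 60.6%). SRSF1 and SRSF2 were the exceptions, at 47.3% and 42.3% with Alyref and 41.7% and 28.9% with Chtop. The median over the 10 members was 28.6% with Alyref and 50.8% with Chtop. Among all protein-coding genes with at least 50 tags the medians were 10.9% over 6448 genes and 28.6% over 5023 genes.

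A region test compared the change of each region with the change of its whole gene, again in 1 edgeR fit over 12 libraries and 936 regions. Only 9 regions of the members had enough tags to enter, the 3′ UTR and the constitutive exons of SRSF1, SRSF2, SRSF6 and SRSF11 and the remaining intron of SRSF11. No poison exon or retained intron of a member entered. SRSF11 had a larger 3′ UTR share and a smaller intron share in Chtop than in Control and than in Nxf1, as many regions of these classes did. Of all 3′ UTRs tested, 22.4% had a larger share for Chtop over Control and 32.3% for Chtop over Nxf1, and of all remaining introns 37.7% and 59.4% had a smaller one. Its 3′ UTR held 19 of 29, 243 of 377 and 313 of 404 tags in the Chtop libraries, 2 of 5, 2 of 28 and 0 of 13 in Control, and 5 of 6, 7 of 50 and 4 of 25 in Nxf1. Chtop libraries lay above all Control libraries, while Nxf1 replicate 1 with its 6 tags lay above all Chtop libraries. Pooled, the 3′ UTR share of SRSF11 was 71.0% (67.8 to 74.0%) with Chtop, 8.70% (3.43 to 20.3%) in Control and 19.8% (12.5 to 29.7%) with Nxf1. The change of the region beyond that of the gene was 2.88 on the log2 scale against Control (edgeR adjusted p = 0.00362) and 1.67 against Nxf1 (edgeR adjusted p = 0.0111).

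The remaining intron of SRSF11 moved the other way. It held 3, 82 and 41 tags in Chtop, 2, 20 and 12 in Control and 1, 33 and 19 in Nxf1, that is 15.6% (13.2 to 18.2%) of the gene's tags with Chtop, 73.9% (59.7 to 84.4%) in Control and 65.4% (54.6 to 74.9%) with Nxf1. The change was -2.41 against Control (edgeR adjusted p = 0.000301) and -2.12 against Nxf1 (edgeR adjusted p = 0.000137), log2, beyond the change of the gene. In an intron of SRSF11, 1 base, position 70696382 of chromosome 1, just before a run of T, held 7 of the Chtop and 4 of the Control tags and came from 2 libraries only. Without Control replicate 2 the SRSF11 calls against Control were lost, with an edgeR adjusted p of 0.278 for the 3′ UTR and 0.167 for the intron, and the 3′ UTR call was also lost without Control replicate 3 (0.1000). Against Nxf1 the 3′ UTR call was lost without Nxf1 replicate 2 (edgeR adjusted p = 0.216) or replicate 3 (0.120), and the intron call was kept in all 12 refits that left out a library, at -2.59 to -1.75. SRSF11 did not pass for Alyref over Chtop, where its 3′ UTR held 18 of 48, 130 of 323 and 132 of 308 tags in Alyref (log2 change -0.79, edgeR adjusted p = 0.190).

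SRSF1 differed in its constitutive exons. They held 11, 68 and 59 tags in Alyref, 7, 63 and 59 in Chtop and only 1, 2 and 2 in Nxf1, in which SRSF1 had 51 tags in all. The constitutive exons therefore took 47.3% (41.6 to 53.0%) of the gene's tags with Alyref, 51.2% (45.0 to 57.3%) with Chtop and 9.80% (4.26 to 20.98%) with Nxf1. The share was larger with Chtop than with Nxf1 (2.43 on the log2 scale beyond the gene, edgeR adjusted p = 0.00337) and larger with Alyref than with Nxf1 (2.24, edgeR adjusted p = 0.0323). Of all constitutive exon regions tested, 39.2% and 9.21% had a larger share in these comparisons. The SRSF1 3′ UTR, with 3, 59 and 43 tags in Chtop and 2, 29 and 13 in Nxf1, had a smaller share with Chtop (-1.03, edgeR adjusted p = 0.0471). SRSF6 had a larger share in constitutive exons with Alyref, at 4, 84 and 62 tags, than with Chtop, at 1, 47 and 45 tags (1.15, edgeR adjusted p = 0.0492).

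Leaving out 1 library ended many of these SRSF1 and SRSF6 region calls. For SRSF1 the Chtop over Nxf1 exon call was lost without Nxf1 replicate 2 (edgeR adjusted p = 0.118). Its Alyref over Nxf1 exon call was lost in 9 of 12 refits, each but those without Chtop replicate 3, Nxf1 replicate 1 or Control replicate 1 (edgeR adjusted p = 0.0502 to 0.312). The SRSF1 3′ UTR call was lost in 11 of 12, each but that without Nxf1 replicate 1 (edgeR adjusted p = 0.0504 to 0.202). The SRSF6 exon region entered 6 of 12 refits and was lost in the refit without Chtop replicate 1 (edgeR adjusted p = 0.0699).

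Over all regions tested, 14.2% had a larger and 15.7% a smaller share for Chtop over Control, 21.6% and 24.5% for Chtop over Nxf1, 3.74% and 1.5% for Alyref over Nxf1, 3.85% and 5.56% for Alyref over Chtop, 1.92% and 0.748% for Alyref over Control, and 0% in both directions for Nxf1 over Control (edgeR, with 32 larger and 7 smaller at an unadjusted p under 0.05, and 0 by limma). The member regions that passed were 1 larger and 1 smaller of 9 for Chtop over Control, 2 larger and 2 smaller for Chtop over Nxf1, 1 larger for Alyref over Nxf1 and 1 larger for Alyref over Chtop, and none for Alyref over Control or Nxf1 over Control by edgeR, where 2 and 0 had an unadjusted p under 0.05.

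At the other end of the transcripts, Alyref tags were frequent in first exons. First exons made up 7.98% of the members' exon length and held 21.1 ± 0.432% (SD, n = 3) of their exon tags with Alyref, 16.3 ± 4.46% with Chtop, 12.5 ± 5.43% with Nxf1 and 13.03 ± 15.4% in Control. Over 17390 protein-coding genes the first exon share was 9.95% with Alyref and 6.76% with Chtop, at 6.78% of the exon length. Last exons made up 72.7% of the members' exon length. They held 52.6 ± 0.493% of the exon tags with Alyref. The share was 72.0 ± 2.39% with Chtop, 72.3 ± 7.25% with Nxf1 and 72.2 ± 9.27% in Control. The means of these 3 groups lay near the share of length, and Alyref stood below it and below the 3 groups. Over all protein-coding genes last exons made up 54.0% of the exon length. Their shares were 31.6% with Alyref, 51.1% with Chtop, 50.2% with Nxf1 and 44.5% in Control. The exons in between, 19.3% of the members' exon length, held 26.3 ± 0.612% with Alyref and 11.7 ± 2.10% with Chtop. These are descriptions with no test.

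The first exon share was larger with Alyref than with Chtop in 8 of 10 members, with medians of 22.9% and 4.29%. In SRSF5 it was 26.3% (20.5 to 33.1%) with Alyref and 2.04% (0.561 to 7.14%) with Chtop, from 49 and 2 tags. In SRSF6 it was 26.2% (21.6 to 31.3%) and 5.46% (3.63 to 8.13%), and in SRSF7 27.4% (21.7 to 34.0%) and 6.47% (3.44 to 11.8%). TRA2A and TRA2B had 15.1% and 12.1% with Alyref and 1.87% and 1.12% with Chtop. SRSF1 and SRSF2 again went the other way. SRSF2 had 36.9% (31.4 to 42.8%) of its exon tags in the first exon with Alyref and 49.3% (44.1 to 54.5%) with Chtop, and SRSF1 had 28.3% (23.3 to 33.8%) and 31.6% (26.0 to 37.8%), intervals that overlapped. In SRSF2 the first exon held 6, 51 and 43 tags in the Alyref libraries and 8, 82 and 82 in Chtop. The first exons of the members were 57.0 to 72.5% G and C and their last exons 30.3 to 49.5%, so the place in the transcript and base composition cannot be told apart.

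**Figure D4:**
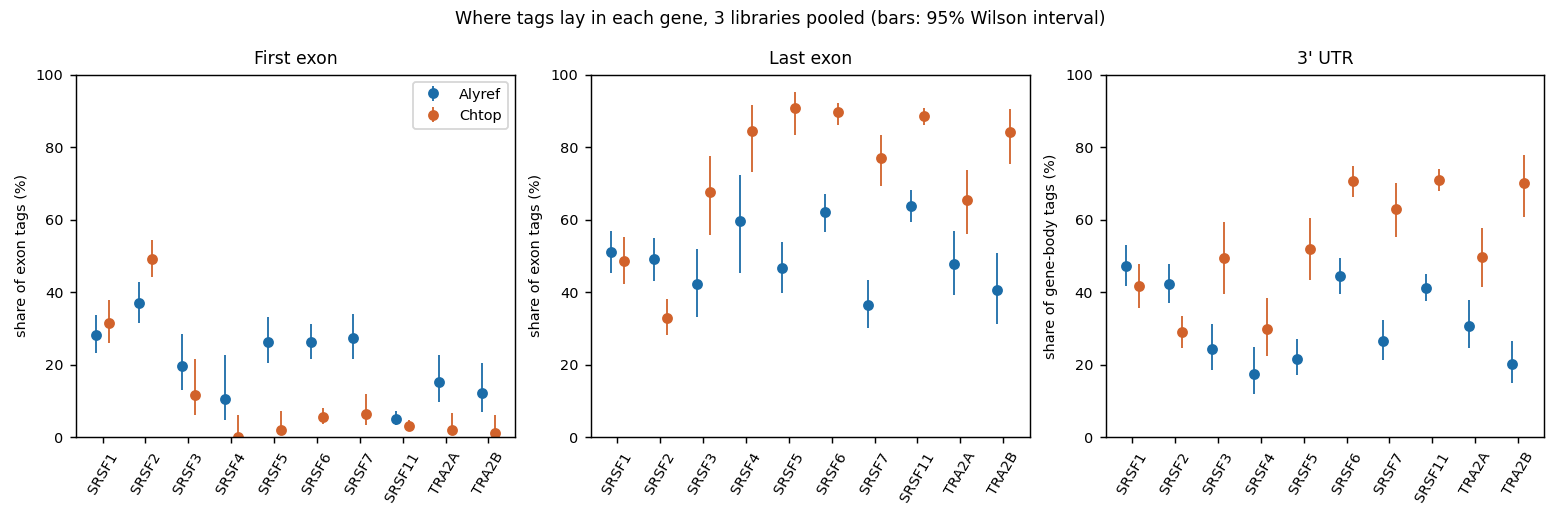
Percent of the exon tags of each SR gene (y axis) in its first exon and in its last exon, and percent of its gene-body tags in the 3′ UTR, with Alyref and Chtop, tags of 3 libraries pooled, with 95% Wilson intervals. The Alyref point lies above the Chtop point for the first exon in 8 of 10 genes and below it for the last exon and the 3′ UTR in 8 of 10, with SRSF1 and SRSF2 as the exceptions.

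The 15 poison exons, 3032 nt in all, held 82 Alyref, 47 Chtop, 7 Nxf1 and 4 Control tags. At the density of the rest of each exon's own intron, 47.6 Alyref and 31.6 Chtop tags would have fallen there. The density in the exons relative to the rest of the same intron, combined over 11 introns by the Mantel-Haenszel method, was 1.68 with Alyref (95% interval 1.29 to 2.19) and 1.56 with Chtop (1.13 to 2.16). In Nxf1 the ratio was 0.822 (0.376 to 1.79) and in Control 0.737 (0.266 to 2.04), so an excess was not detectable there at this depth. The exon was denser than the rest of its intron in 10 of 15 cases with Alyref and in 10 of 15 with Chtop. Summing tags and lengths over introns of unlike density gave larger ratios, 3.24 with Alyref and 3.12 with Chtop. Poison exons held 3.50 ± 1.35% (SD, n = 3) of the members' tags with Alyref and 1.23 ± 1.07% with Chtop. The share was 1.29 ± 1.19% with Nxf1 and 2.10 ± 1.95% in Control. Pooled density was 20.5 CPM per kb with Alyref, 15.3 with Chtop, 7.53 with Nxf1 and 14.6 in Control. Over all protein-coding genes the shares were 0.255% and 0.218%, where poison exons also took a smaller part of gene length. Density over the remaining intron, also summed over introns of unlike density, was 8.44-fold with Alyref and 9.22-fold with Chtop in members. It was 3.14-fold with Nxf1 and 3.45-fold in Control. Over all protein-coding genes it was 6.50-fold with Alyref, 8.12-fold with Chtop, 3.10-fold with Nxf1 and 2.48-fold in Control.

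The exon inside SRSF7 intron 3 (chr2:38976040-38976488, 449 nt, minus strand), whose stop codons are printed above, held the most tags, with 21 Alyref, 6 Chtop, 1 Nxf1 and 0 Control tags. SRSF3 followed, with 17 Alyref and 9 Chtop tags and 0 in Nxf1 and Control in the exon of intron 3 (chr6:36567598-36568053, 456 nt, plus strand). The SRSF3 tags came from all 3 Alyref libraries, with 2, 12 and 3. The SRSF6 exon (chr20:42087793-42088060, 268 nt, plus strand) held 11 Alyref and 10 Chtop tags, and the SRSF11 exon at chr1:70697542-70697658 (117 nt, plus strand) 11 and 4. The SRSF2 exon (104 nt) held 6 Alyref and 3 Chtop tags. Per kb the order differed. With Alyref this SRSF11 exon had 71.4 CPM per kb, that of SRSF2 43.8 and that of SRSF7 intron 3 35.5. With Chtop the SRSF6 exon had 36.7 CPM per kb and that of SRSF7 intron 3 13.2. In TRA2A and TRA2B, which regulate their own poison exon, the exon held 6 and 3 Alyref tags and 2 and 1 Chtop tags. None of the 5 SRSF4 and SRSF3 intron 2 exons held more than 2 tags of any group. At least 1 Alyref tag fell in 12 of 15 exons and at least 1 Chtop tag in 13 of 15.

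Retained introns held 4.92 ± 1.17% of the members' tags with Alyref and 4.18 ± 1.90% with Chtop, and they were led by a pair of introns. SRSF5 intron 5 (chr14:70235969-70237183, 1215 nt, plus strand), kept in isoforms annotated as retained intron, held 54 Alyref, 21 Chtop, 5 Nxf1 and 6 Control tags. SRSF2 intron 2 (chr17:74731241-74732235, 995 nt, minus strand), kept whole in an isoform annotated as protein-coding, held 35 Alyref, 44 Chtop, 12 Nxf1 and 4 Control tags outside its poison exon. The other 11 annotated retained introns held at most 9 tags of any group each, and SRSF6 had none annotated. The pooled density of the SRSF5 intron was 33.8 CPM per kb with Alyref and 54.5 in Control, the latter from 6 tags. That of the SRSF2 intron outside its poison exon was 29.8 with Alyref, 48.6 with Chtop and 49.5 in Control, the last from 4 tags.

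**Figure D5:**
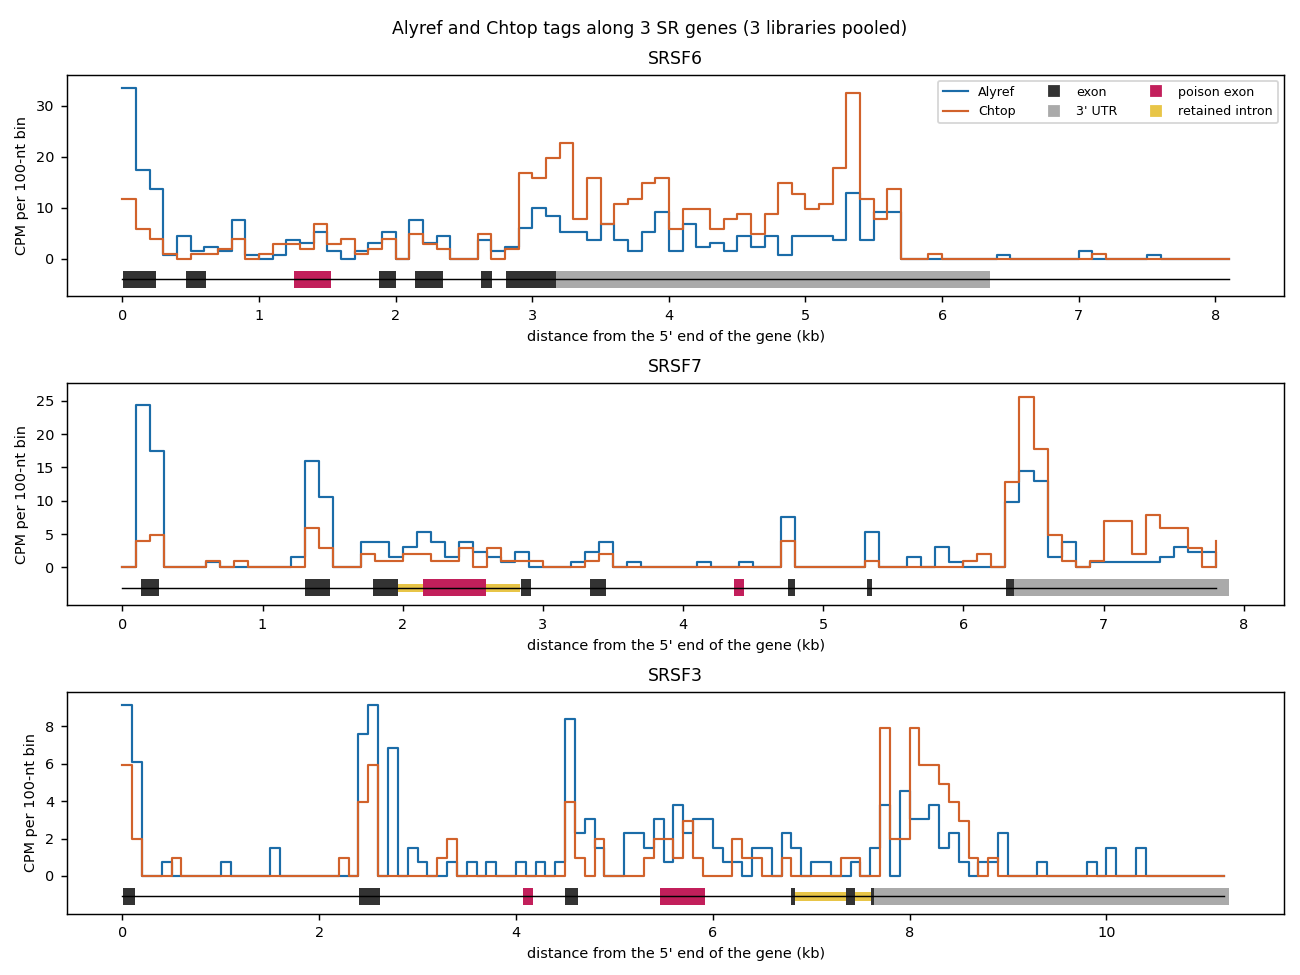
CPM in bins of 100 nt (y axis) along SRSF6, SRSF7 and SRSF3 (x axis, kb from the 5′ end of the gene), with 3 Alyref libraries and 3 Chtop libraries pooled, above the exons, 3′ UTR, poison exons and retained introns of each gene. Alyref is highest over the first exons and Chtop over the last exon, as in SRSF6, where the first exon held 82 Alyref and 22 Chtop tags and the 3′ UTR 163 and 310.

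Within the 3′ UTR the tags took different places in different members. When each 3′ UTR was cut into 3 equal parts, the first part of TRA2B, whose 3′ UTR is annotated at 3157 nt, held 35 of 36 Alyref and 74 of 75 Chtop tags. In SRSF3 (3611 nt) it held 32 of 42 Alyref and 46 of 46 Chtop tags. SRSF2, with a 3′ UTR of 1051 nt, was tagged towards the end, with 85 of 134 Alyref and 71 of 115 Chtop tags in the last part. In SRSF6 the Chtop tags were spread, with 129, 112 and 69 in the 3 parts, and the densest window of 100 nt began at base 2124 of the 3′ UTR with Alyref and at base 2127 with Chtop. In SRSF11 the densest windows began at bases 679 and 700.

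Around exon junctions, tags from 75 to 24 nt upstream, the region next to where the exon junction complex is deposited, were counted for 29 junctions of the 10 genes. They were 179 of 542 tags within 100 nt of a junction with Alyref (33.0%, 29.2 to 37.1%) and 74 of 273 with Chtop (27.1%, 22.2 to 32.7%). These intervals overlap. Nxf1 had 14 of 41 tags there and Control 3 of 9. The window is where the paper, from the same iCLIP data, reported Alyref enrichment at internal junctions, leaving out first and last junctions. Here first and last junctions were included, so tags of first exons enter these counts. The shares were not set against an even spread of tags.

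No single base was heavily tagged, and the base with most factor tags in each member had between 3 and 7. Of these 10 bases, 5 were found in at least 4 libraries and are shown with 10 nt on each side. The capital marks the crosslinked base, letters are DNA letters of the RNA strand in GRCh37:
SRSF1 first exon, chr17:56084502-56084522, minus strand: gagtccgcgcTtttcgtcacc
SRSF2 first exon, chr17:74733368-74733388, minus strand: gcggagcccgTccgtgctgtt
SRSF5 gene body upstream of the canonical first exon, chr14:70233553-70233573, plus strand: ggagagatgaTgatgaaccga
SRSF6 3′ UTR, chr20:42091825-42091845, plus strand: acccataattTtctagtaata
TRA2A 3′ UTR, chr7:23544899-23544919, minus strand: taaattttttTttttgctttt
The SRSF2 base held 3 Alyref, 2 Chtop and 2 Nxf1 tags and no Control tag, from 7 libraries. The SRSF5 base held 2 Alyref, 2 Nxf1 and 1 Control tags. In each of the 5 the crosslinked base was T, that is U in the RNA. Over all member tags U was the crosslinked base in 54.3% with Alyref, 58.2% with Chtop, 60.3% with Nxf1 and 58.0% in Control, against 30.1% U among the 31886 bases of the mature transcripts. The Control value thus lay within the range of the 3 factors. The tags include those in introns while the 30.1% covers exon bases only, so it is not a matched baseline.

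Other genes of the pathway were taken from 3 lists, with 13 of 17 genes tested. Calls numbered 4 higher and 1 lower for Chtop over Nxf1, where 16% and 9.21% of all genes were called, 3 higher for Alyref over Nxf1 (3.23% of all genes), 2 higher for Chtop over Control (9.8%), and 1 higher and 1 lower for Alyref over Chtop (5.26% and 10.5%). Of 4 other SR family genes 2 were tested, and SRSF10, a splicing repressor when dephosphorylated, was higher with Alyref than with Nxf1 (log2 fold change 1.32, edgeR adjusted p = 0.0382) and higher with Chtop than with Nxf1 (1.73, edgeR adjusted p = 0.00166). All 6 SR-related proteins were tested. SRRM2, a scaffold of nuclear speckles, was higher with Chtop than in Control (2.67, edgeR adjusted p = 0.00116), higher with Chtop than with Nxf1 (1.71, 0.00839) and lower with Alyref than with Chtop (-1.28, 0.0392). SREK1 was higher with Chtop than in Control (1.51, edgeR adjusted p = 0.0272) and than with Nxf1 (1.88, 0.00135). ACIN1 was higher with Chtop than with Nxf1 (1.32, edgeR adjusted p = 0.0152), and PNN, a partner of the exon junction complex, higher with Alyref than with Nxf1 (1.98, 0.00786). Of 7 kinases and the import receptor of SR proteins 5 were tested. CLK1, which phosphorylates RS domains, was higher with Alyref than with Chtop (1.01, edgeR adjusted p = 0.0413) and than with Nxf1 (1.70, 0.0415), and SRPK2 was lower with Chtop than with Nxf1 (-1.14, 0.0242). None of these genes passed for Alyref or Nxf1 over Control. The median log2 fold changes for Chtop over Control were 0.61, 1.17 and 0.17 in the 3 lists, beside 0.58 in the 10 members and 0.21 over all genes.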

How the data were processed

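iCLIP tags were measured in 12 libraries, 3 each of Alyref, Chtop, Nxf1 and Control, pooled from 32 sequencing runs by the authors. The deposited counts are whole numbers of deduplicated cDNAs per base and strand. Per the methods the authors removed phiX reads with Bowtie 1.1.2, trimmed with Reaper, kept reads over 15 nt, mapped uniquely to hg19 with STAR 2.4.2a, merged lanes and deduplicated with UMI-tools 0.5.3. Deduplication and unique mapping leave out repeated sequence.

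Tags were summed per gene and per region on the gene strand, with GENCODE 44 lifted to GRCh37. The canonical transcript defined exons, and each base took the first class that held, 3′ UTR, constitutive exon, poison exon, retained intron, remaining intron. Tests used edgeR 4.0.16 (R 4.3.3) quasi-likelihood fits of all 12 libraries with TMM scaling, filterByExpr and Benjamini-Hochberg adjustment over the whole table, called under 0.05, and diffSpliceDGE for regions. 3744 of 38864 genes and 936 regions passed the filter on low counts, all 10 members and 9 member regions among them. DESeq2 1.42.0 and limma 3.58.1 were alternatives, as were other scaling, filters, counting rules and leaving out each library. Scripts were tested on simulated data: in 3744 genes simulated as Alyref against Control, 16 of 50 genes changed 4-fold and 46 of 50 changed 8-fold were recovered, and in 936 regions simulated as Alyref against Chtop 9 of 50 and 17 of 50. Densities of poison exons and of their introns were compared by a Mantel-Haenszel ratio over introns, chosen after seeing the data, whose interval covers counting error only. Sequences are from the GRCh37 genome.

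All 10 members are named, with their poison exon stop codons and most tagged bases, and other pathway genes where they passed the test. The members and lists were chosen with earlier results of these data known. Every column of per-sample values was used.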

Additional observations from a re-analysis of the deposited data

How the results depend on the processing

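Of the single-gene results under the alternatives, 1062 kept their side of the threshold, 34 lost and 11 gained a call. Of the region results these were 922, 57 and 11. Results that kept their side include uncalled ones that changed sign. SRSF1 for Alyref over Nxf1, for example, ran from -0.446 to 0.684 when each library was left out. No result changed its sign while called. By gene, SRSF2 for Chtop over Control was called in 17 of 19 alternatives (edgeR, DESeq2 and other adjusted p 0.00292 to 0.0724), SRSF6 for Chtop over Nxf1 in 16 of 18, and SRSF2 for Alyref over Chtop in 6 of 19.

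Counts of members called moved by over 1.5 times as follows. With DESeq2, 1 was higher for Chtop over Control, and 0 lower for Alyref over Chtop, 0 higher for Alyref over Nxf1 and 0 higher for Chtop over Nxf1. By DESeq2 15 member results got no adjusted p, all in Alyref over Control, Chtop over Control or Alyref over Nxf1. Among them was SRSF7 for Alyref over Nxf1 (log2 fold change 1.61), so its call was not evaluated. Every member got an adjusted p for Chtop over Nxf1, so those calls were lost. With no filter on low counts, 0 genes were lower for Alyref over Chtop and 0 higher for Alyref over Nxf1, and 0 regions were called for Chtop over Control, Chtop over Nxf1, Alyref over Chtop and Alyref over Nxf1. With each base counted once, 2 genes were lower and 2 regions larger for Alyref over Chtop. Scaling by library totals gave 0 lower for Alyref over Chtop and 2 higher for Alyref over Nxf1. Leaving out tags in more than 1 gene gave 1 higher for Chtop over Control. SRSF6 was not tested in that setting, as nearly all of its tags are shared with the overlapping gene. Its calls could therefore not be checked apart from that gene. Taking poison exons from any isoform gave 0 larger regions for Alyref over Chtop. With limma, 1 region was larger and 1 smaller for Alyref over Control, both in SRSF11, 0 larger and 1 smaller for Alyref over Chtop, and 2 smaller for Alyref over Nxf1. Over all regions limma called 106 larger and 112 smaller for Alyref over Control, where edgeR called 18 and 7. Over all genes, scaling by library totals moved the median log2 fold change from 0.16 to 0.31 for Alyref over Control, 0.10 to -0.02 for Nxf1 over Control, 0.00097 to 0.13 for Alyref over Chtop, 0.03 to 0.28 for Alyref over Nxf1 and 0.08 to 0.20 for Chtop over Nxf1. DESeq2 called 23 genes higher and 69 lower for Alyref over Chtop and 179 and 96 for Chtop over Nxf1 (edgeR 197 and 392, and 600 and 345). The causes were not tested, except that fewer tests or fewer tags follow from the filters and the overlapping genes.

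Filters chosen after seeing the data gave 0 genes lower for Alyref over Chtop at 50 tags or more. With regions of 20 tags or more, 0 were called for Chtop over Control, Chtop over Nxf1, Alyref over Chtop and Alyref over Nxf1. With 30 or more, 0 were larger for Chtop over Control, Alyref over Chtop and Alyref over Nxf1, and 1 was smaller for Chtop over Nxf1. With 50 or more, 0 were larger and 1 smaller for Alyref over Chtop, the TRA2B 3′ UTR, which entered only through its 75 Chtop tags (36 in Alyref, 5 in Nxf1 and 1 in Control) and carries no support, and 0 were larger for Alyref over Nxf1.

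Leaving out each library in turn gave 0 to 2 genes higher for Chtop over Control, 0 to 4 for Chtop over Nxf1, 0 to 1 for Alyref over Nxf1 and 0 to 2 lower for Alyref over Chtop. Regions ranged from 0 to 1 larger and 0 to 1 smaller for Chtop over Control, 0 to 2 larger and 1 to 2 smaller for Chtop over Nxf1, 0 to 2 larger for Alyref over Chtop, and 0 to 1 in each direction for Alyref over Nxf1.

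Replicate numbers did not pair the libraries: deviations of same-numbered libraries correlated at -0.17 to 0.21 over 18 pairs, 5 of them over 0.1. With the replicate number as a block, 0 genes were lower and 0 regions larger for Alyref over Chtop, 0 regions were larger for Alyref over Nxf1 and 1 was smaller for Chtop over Nxf1, and the other counts of calls moved by less than 1.5 times.

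Depth limited the Control and Nxf1 groups most, with 131 and 368 member tags. No poison exon or retained intron of a member passed the filter of the reported region test. Poison exons were sparsely tagged in the deeper groups too, and the SRSF7 exon with most tags held 21 Alyref and 6 Chtop tags. With regions of 50 tags or more the retained introns of SRSF2 and SRSF5 entered, and neither passed in any comparison (smallest edgeR adjusted p 0.174). In simulated counts, gene changes of 4-fold or less were mostly missed. Region changes of 8-fold were also mostly missed, with 17 of 50 recovered, and at 16-fold 25 of 50 were recovered.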

Other observations

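On the strand opposite to the 10 genes, within their bodies, 14 tags were found with Alyref, 20 with Chtop, 5 with Nxf1 and 1 in Control, that is 10.6, 19.7, 16.3 and 11.03 CPM pooled over 3 libraries. At the Control depth even 0 tags would allow up to 33.1 CPM, and the 1 tag found allows more. No group exceeded 33.1 CPM. Genes are annotated on that strand in the bodies of SRSF2 and SRSF11.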
